A study of Mus musculus with 15 samples.

Results

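Most of the genes described here encode parts of the motile cilium, the beating projection that ependymal cells carry on the surface facing the brain ventricles. All were chosen by name: symbols of the Dnah, Dnaic, Dnai, Cfap, Rsph and Tekt families and numbered Spag genes, with Foxj1, Tmem212, Hydin and Dynlrb2 added. A gene was kept if its normalized count was 10 or more in at least 3 of the 15 libraries. Of the 26595 genes in the table, 67 carried such a name and 62 of these reached the level. The other 5, Cfap73, Rsph14, Spag11a, Spag11b and Tekt3, stayed below it and were not tested. The choice used names and a level over all libraries, not a difference between groups. Of the 62 genes, 57 also reached the level in at least 3 cortex libraries. The other 5 did not. Of these, Cfap221, Cfap53, Cfap58 and Cfap77 reached it in no cortex library, so the filter favoured a higher count in striatum for them. Rsph6a reached it in 1 cortex and 2 striatum libraries.

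The study sequenced RNA of 2 brain regions, cerebral cortex and striatum, taken from C57Bl/6 males at 5 months of age. The mice were wild type (WT) or Slc1a4 -/- (KO), which removes ASCT1, a transporter of neutral amino acids; the labels name no Cre line or other allele. The 4 groups were KO cortex (4 libraries, replicates 1 to 4), WT cortex (4 libraries, replicates 5 to 8), KO striatum (3 libraries, replicates 2 to 4) and WT striatum (4 libraries, replicates 5 to 8). Whether the replicates of a group are different mice is not stated in the labels, and p-values here cover only the variation among the libraries at hand. Values are normalized read counts. Slc1a4 itself stood at 265 ± 28.7 in KO cortex and 271 ± 99.3 in KO striatum, against 1624 ± 127 in WT cortex and 1533 ± 217 in WT striatum (SD, n = 4, 3, 4 and 4).

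A motile cilium is built on a ring of doublet microtubules around a central pair. Rows of outer and inner dynein arms slide the doublets past each other, radial spokes and the central apparatus time the strokes, and inner proteins such as the tektins stiffen the doublet wall. In the brain such cilia belong to ependymal cells, which line the ventricles and move cerebrospinal fluid, and the related epithelium of the choroid plexus expresses many of the same genes. The striatum borders the lateral ventricle, and most of the cortex does not. Foxj1 is the master transcription factor of motile cilia, and it acts together with transcription factors of the RFX family, whose binding motif is found in many cilia promoters.

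Promoter sequences from RefSeq (GRCm38.p6, 250 bases before to 50 after a gene's start) were matched to 53 of the 62 genes, with 60 entries in all because some genes have more than 1 start. No promoter was matched for Cfap157, Cfap53, Cfap54, Cfap97, Dnah3, Foxj1, Rsph1, Rsph4a and Spag1. Each promoter was searched on both strands for the short RFX motif GTTNCC, in which N is any base, for the longer RFX palindrome (GTNNCC, any 2 bases, then GGNNAC), and for the forkhead motif TGTTTAC. The palindrome was present in 7 of the 60 entries, or 11.7%, against 1.88% of all 32851 promoters of the same length. These were promoters of Cfap126, Cfap206, Cfap77, Rsph9, Spag5, Spag6 and Tekt4. The short motif was present in 44 entries, or 73.3%, against 45.3% of all promoters. The forkhead motif was in 2 entries, or 3.33%, against 3.65% of all. The 2 RFX motifs overlapped in Cfap206, Spag5, Spag6 and Tekt4, so these sites count for both. A match describes the letters in this window and says nothing about binding in these tissues.

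Of the 7 promoters with a palindrome, the following 4 belong to a doublet inner protein (Cfap126, also called Flattop), a protein of the spoke base (Cfap206), a spoke head protein (Rsph9) and a tektin (Tekt4). They are shown 5′ to 3′ on the strand of the gene, with the palindrome in capitals, as examples from different parts of the axoneme. Its first base lay 82 bases before the start in Cfap126 (chr1:171122795-171123094, plus strand), 23 before in Cfap206 (chr4:34730157-34730456, minus strand), 6 before in Rsph9 (chr17:46144151-46144450, minus strand) and 160 before in Tekt4 (chr17:25471340-25471639, plus strand). In the promoters not shown it lay 236 bases before the start in Cfap77 and 186 before in Spag5, and in Spag6 it began 34 bases after the start.
Cfap126: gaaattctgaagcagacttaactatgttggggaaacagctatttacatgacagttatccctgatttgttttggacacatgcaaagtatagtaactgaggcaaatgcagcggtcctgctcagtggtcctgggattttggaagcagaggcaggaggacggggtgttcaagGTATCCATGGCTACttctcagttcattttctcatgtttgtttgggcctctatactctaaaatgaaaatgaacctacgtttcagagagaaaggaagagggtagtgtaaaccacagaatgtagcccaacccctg
Cfap206: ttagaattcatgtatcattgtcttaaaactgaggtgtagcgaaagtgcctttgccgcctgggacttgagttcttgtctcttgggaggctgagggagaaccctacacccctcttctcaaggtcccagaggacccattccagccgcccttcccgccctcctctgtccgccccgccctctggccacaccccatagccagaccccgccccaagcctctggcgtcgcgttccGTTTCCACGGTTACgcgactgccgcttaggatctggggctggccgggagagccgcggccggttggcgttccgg
Rsph9: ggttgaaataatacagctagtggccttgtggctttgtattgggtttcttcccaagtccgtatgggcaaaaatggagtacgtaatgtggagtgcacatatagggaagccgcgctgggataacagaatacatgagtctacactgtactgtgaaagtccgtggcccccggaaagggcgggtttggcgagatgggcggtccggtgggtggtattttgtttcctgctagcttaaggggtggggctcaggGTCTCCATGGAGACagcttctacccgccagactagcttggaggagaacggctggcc
Tekt4: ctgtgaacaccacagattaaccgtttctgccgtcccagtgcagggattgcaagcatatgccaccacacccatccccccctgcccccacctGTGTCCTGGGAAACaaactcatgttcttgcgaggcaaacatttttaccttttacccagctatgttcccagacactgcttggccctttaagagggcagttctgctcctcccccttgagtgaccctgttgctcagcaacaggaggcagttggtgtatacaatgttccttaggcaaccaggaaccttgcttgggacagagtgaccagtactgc

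The promoters of the 2 ependymal marker genes Tmem212 (chr3:27896319-27896618, minus strand) and Spag17 (chr3:99885167-99885466, plus strand) had no palindrome. They are shown, with the short RFX motif on either strand in capitals, because both genes stand among those with the largest tissue differences below. Tmem212 had the short motif at 2 places and Spag17 at 3 places.
Tmem212: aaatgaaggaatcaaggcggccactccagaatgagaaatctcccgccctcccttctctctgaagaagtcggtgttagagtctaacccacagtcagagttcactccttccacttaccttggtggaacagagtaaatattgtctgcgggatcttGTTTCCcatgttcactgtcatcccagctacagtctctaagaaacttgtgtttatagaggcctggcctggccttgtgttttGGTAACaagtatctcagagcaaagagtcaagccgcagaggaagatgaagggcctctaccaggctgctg
Spag17: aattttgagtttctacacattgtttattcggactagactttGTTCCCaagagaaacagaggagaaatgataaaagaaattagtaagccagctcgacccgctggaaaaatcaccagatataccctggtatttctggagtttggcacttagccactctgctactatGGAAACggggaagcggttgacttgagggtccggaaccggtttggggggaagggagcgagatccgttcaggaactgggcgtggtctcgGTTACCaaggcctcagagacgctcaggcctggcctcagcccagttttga

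Libraries differed in ways that touch these genes, and the values are given before the results. The striatum libraries held 22990233 to 25697792 counted reads and the cortex libraries 26791109 to 30276815. WT striatum 5 and KO striatum 4 stood apart in 18 marker genes of the choroid plexus, which summed to 155382 and 96778 normalized counts against 2168 to 7466 in the other 5 striatum libraries. The members' median differences that involve striatum are therefore also given without these 2 libraries. Most single-gene values, counts of calls and list counts are given only with them. In cortex the same 18 genes summed to 1987 to 7164 in the KO libraries and 937 to 2466 in the WT libraries, and none of the 18 was at 0 in any library. Marker genes of cortical excitatory neurons (8 genes) summed to 5932 to 10968 in KO striatum, 2142 to 5642 in WT striatum and 48447 to 55109 in cortex. Those of striatal projection neurons (10 genes) summed to 41708 to 185530 in striatum and 7099 to 19682 in cortex. Marker genes of thalamus and septum, which lie beside the striatum, summed to 28645 in KO striatum 4 and 16807 in WT striatum 8, to 3038 to 7081 in the other striatum libraries and to 588 to 1217 in cortex. Markers of subventricular zone progenitors and neuroblasts, cells next to the ependyma, summed to 1829 to 3563 in striatum and 2209 to 2590 in cortex. Their mean log2 deviation was highest in KO striatum 3, at 0.74, and lowest in WT cortex 7, at -0.92. The part of these cells in the members' values was not tested. In tissue samples of this kind, fewer ependymal cells and less RNA per cell cannot be told apart.

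Most defining markers of ependymal cells were present. Foxj1, Tmem212 and Spag17 were counted in all 15 libraries, and so were the ependymal cell-body genes Rarres2, Cd24a and Tm4sf1. Rarres2 stood at 193 ± 38.4 in WT striatum and 64.7 ± 11.46 in WT cortex, and Cd24a at 435 ± 120 and 108 ± 27.8 (SD, n = 4). Mia, also on the list, was at 0 in at least 1 library of every group and was not tested. Vim, which astrocytes and vessels also express, stood at 932 ± 140 and 885 ± 29.98. Of the 6 genes on the cell-body list 5 were tested. Between WT striatum and WT cortex 3 were called higher and 0 lower, against 24.9% and 25.7% of all genes, and 4 were above 0. The list summed to 2707 in KO cortex 2 and to 1399 to 1484 in the other KO cortex libraries. Of the 62 genes, 6 are cilia genes by name more than by known function: Spag4 (a nuclear envelope protein), Spag5 (astrin, of the mitotic spindle), Spag7, Spag9 (a JNK signalling scaffold), Cfap36 and Cfap97.

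Per kilobase of exon, 4 of the 6 name-only genes had the highest levels. Over all libraries Spag9 stood at 1285 normalized counts per kb, Cfap36 at 795, Spag7 at 500.2 and Cfap97 at 213, while the median of all genes tested was 106. The other 2, Spag5 and Spag4, stood at 68.5 and 17.3 per kb. Among genes with a known place in the axoneme, Cfap20, a doublet inner protein that is also found in primary cilia, led with 154 per kb, followed by the spoke head protein Rsph9 and the tektin Tekt5, each at 108. Foxj1 stood at 89.9 per kb. The lowest were the outer arm heavy chains Dnah17 at 0.761 and Dnah8 at 0.646 per kb. The heat map of all 62 genes shows the pattern across libraries. Most genes were high in striatum, a smaller set moved the other way, and libraries of 1 group differed among themselves. The median standard deviation of the members on the log2 scale was 0.28 in KO cortex, 0.33 in WT cortex, 0.50 in KO striatum and 0.48 in WT striatum, against 0.12, 0.12, 0.22 and 0.17 for all genes tested.

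**Figure D1:**
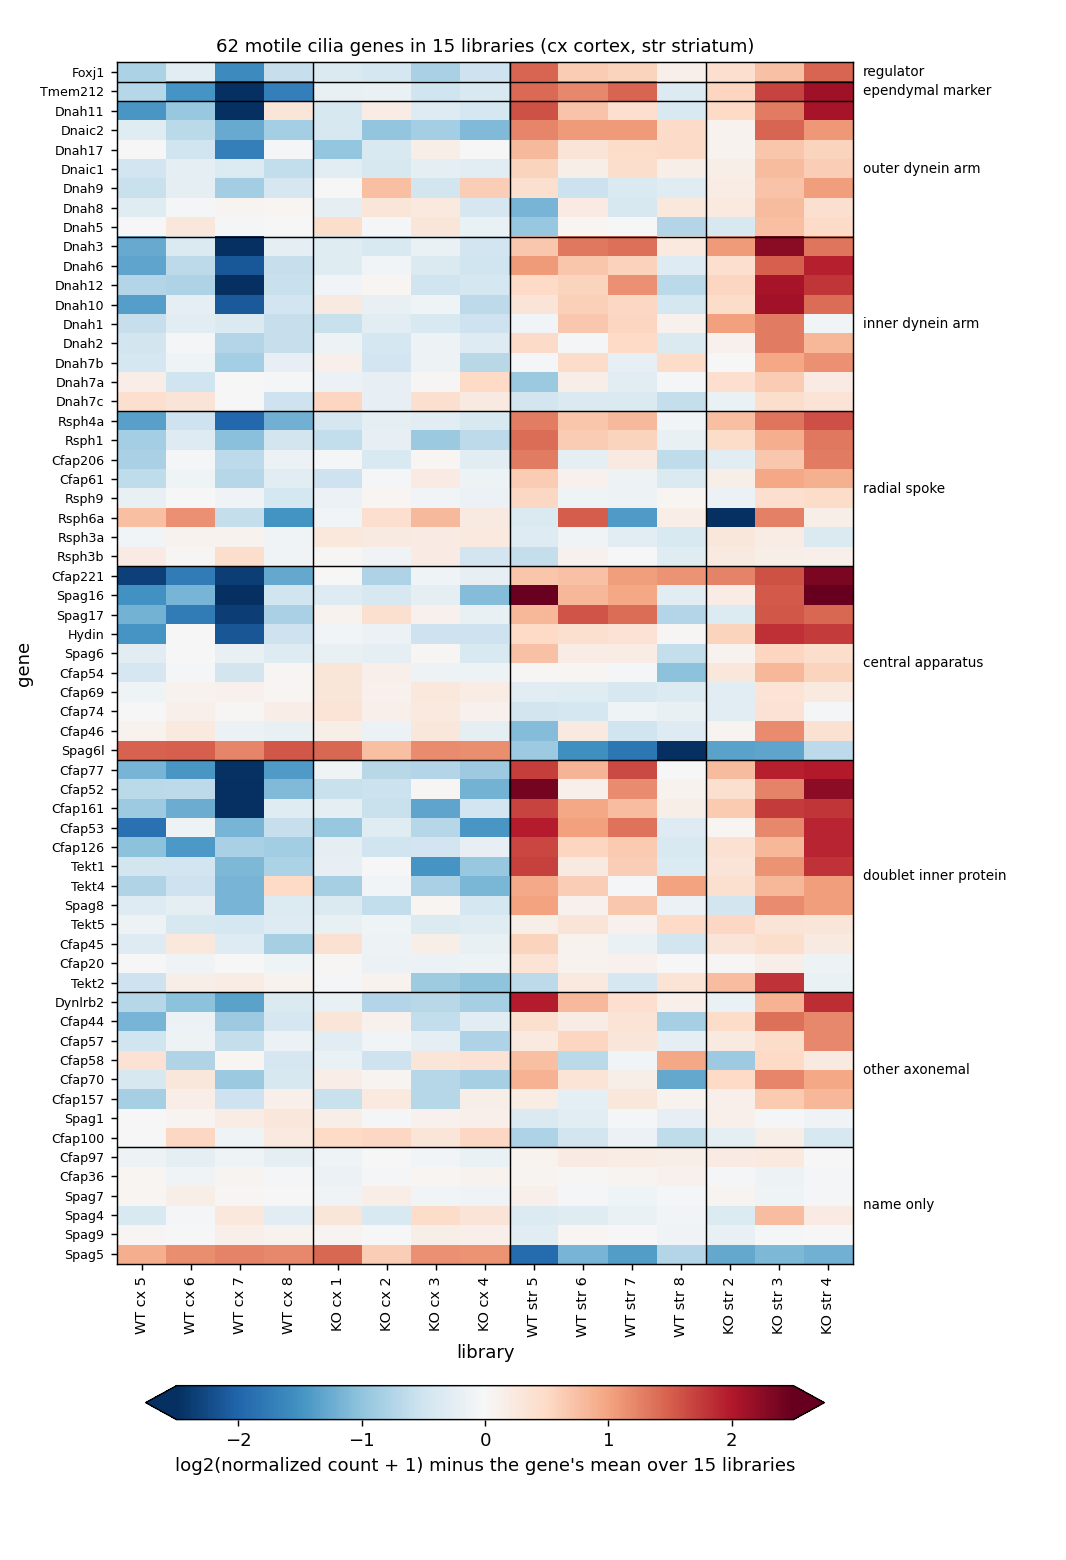
Heat map of the 62 genes (1 line per gene, grouped by role) in the 15 libraries (1 column per library, grouped by tissue and genotype). Colour is log2 of the normalized count plus 1 minus the gene's mean over all libraries, with colours saturating at 2.5 above or below 0; most genes are above their mean in striatum, and Spag5 and Spag6l are far below it there.

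In WT mice, 28 of the 62 genes were higher in striatum than in cortex and 6 were lower, past an adjusted p of 0.05 in limma. The tissues differed widely in general: over all genes tested, 24.9% were called higher and 25.7% lower in the same comparison, and the members are read against that. Of the 57 genes that also reached the level in cortex, 25 were higher and 6 lower (median 0.57). The remaining 3 of the 28, Cfap221, Cfap53 and Cfap77, passed the filter through striatum alone, which favoured that direction. The 6 name-only genes held 1 of the higher calls, Cfap97, and 1 of the lower, Spag5. The median difference of the members was 0.57 on the log2 scale with 44 of 62 above 0, while over all genes it was 0.01 with 50.5% above 0. All values of all 4 libraries of striatum lay above all 4 of cortex for 23 members and below them for 6, against 23% and 24.3% of all genes. These 23 include Cfap221 and Cfap77, which passed the filter through striatum alone. Without the 2 libraries rich in choroid plexus transcripts the members' median was 0.42, and with single libraries left out it ran from 0.42 to 0.68.

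Foxj1 (ENSMUSG00000034227, chromosome 11, positions 116330704 to 116335399, minus strand, GRCm38) stood at 114, 164, 64.9 and 132 normalized counts in WT cortex 5 to 8 and at 548, 309.9, 292 and 217 in WT striatum 5 to 8. The groups did not overlap, and the highest striatum library was the choroid-rich WT striatum 5. The log2 difference was 1.51 (SE 0.30, limma adjusted p = 0.000797), and it ran from 1.25 to 1.70 with single libraries left out. Tmem212 (ENSMUSG00000043164, chromosome 3, positions 27866066 to 27896368, minus strand), a membrane protein gene used as an ependymal marker, stood at 17.0, 9.51, 2.74 and 8.02 in WT cortex and at 77.3, 66.0, 79.6 and 22.3 in WT striatum. Again no cortex library reached the lowest striatum library, and the difference was 2.65 (SE 0.48, limma adjusted p = 0.000362). The plot of 9 genes by library shows these values together with Spag17, Cfap221, Rsph4a, Dnah6, Dnah5, Spag5 and Spag6l.

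**Figure D2:**
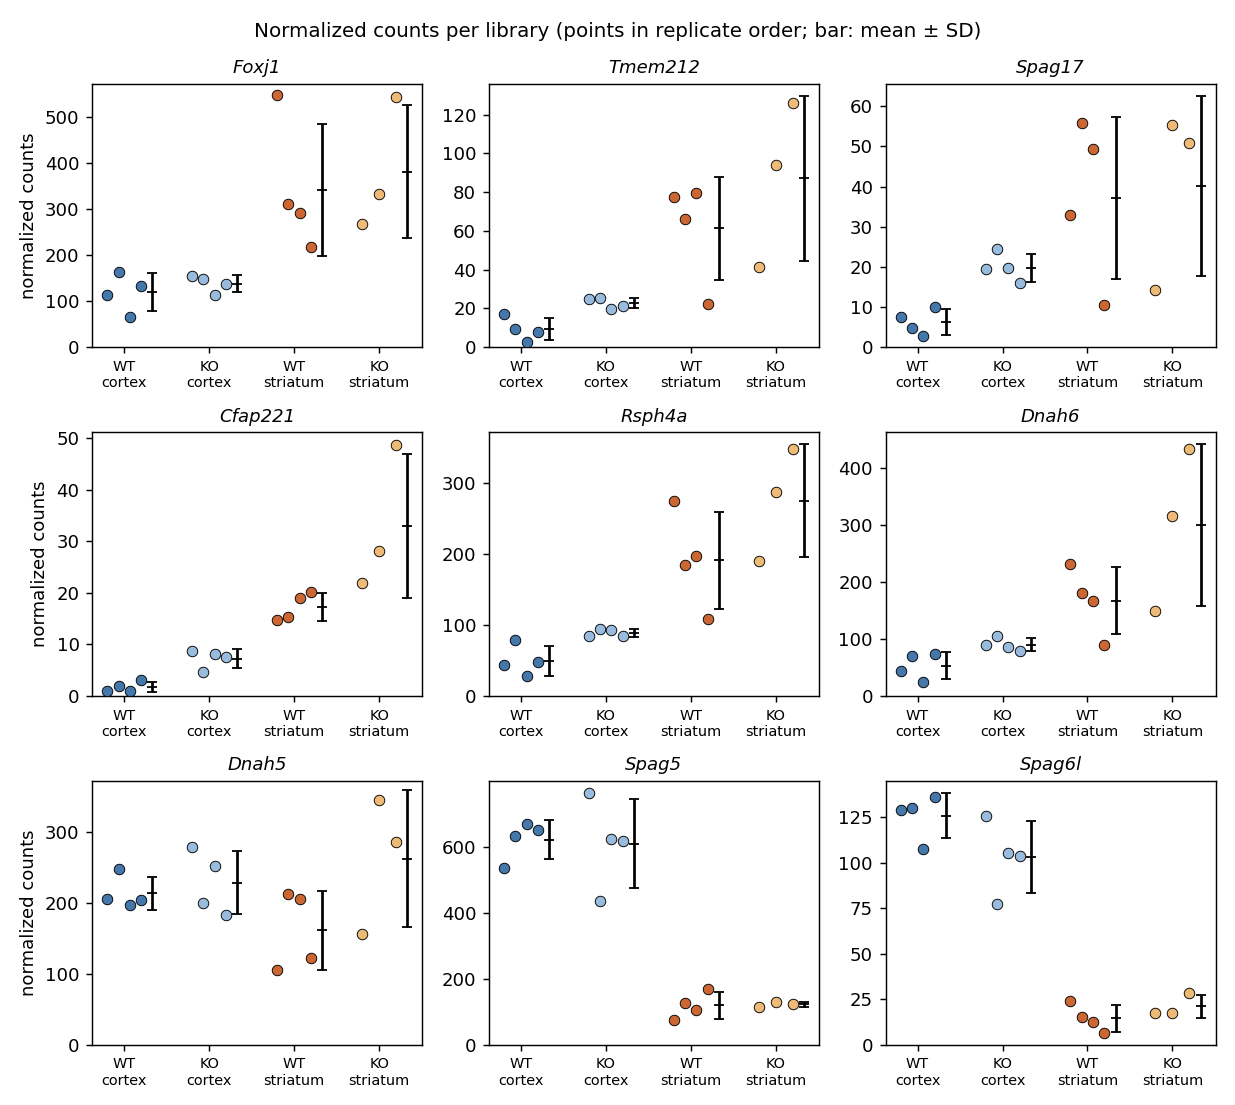
Normalized counts of 9 genes in each library (points; 1 panel per gene, y axes start at 0 and differ), with the mean and SD of each group. Foxj1, Tmem212, Spag17, Cfap221, Rsph4a and Dnah6 are higher in WT striatum than in WT cortex in every library, Dnah5 overlaps between tissues, and Spag5 and Spag6l are lower in striatum.

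Counts by role in WT are read against the 24.9% of all genes called higher and the 25.7% called lower. The outer dynein arms, the main force generators of the beat, had 7 members, of which 4 were higher and none lower (median 0.74). Both intermediate chains, which link the arm to the doublet, were higher. Dnaic2 (ENSMUSG00000034706, chromosome 11, positions 114727408 to 114757889, plus strand) stood at 57.4, 44.7, 29.3 and 39.1 in WT cortex and at 167, 151, 151 and 99.6 in WT striatum. The groups lay well apart, with a difference of 1.73 (SE 0.28, limma adjusted p = 0.000148). Dnaic1 rose from 62.4 ± 7.13 to 105 ± 15.4 (SD, n = 4), a difference of 0.74 (SE 0.15, limma adjusted p = 0.0011). The heavy chains, the motor subunits, were less uniform. Dnah11 was at 17.0, 24.7, 4.57 and 60.2 in cortex and at 148, 79.3, 65.1 and 37.1 in striatum, so the groups overlapped, and the difference was 1.89 (SE 0.58, limma adjusted p = 0.0138). A part of its exons, 4.44%, overlaps Cdca7l on the other strand. With single libraries left out, the Dnah11 difference ran from 1.28 to 2.43 (limma adjusted p up to 0.0464). Dnah5, the heavy chain gene most often mutated in human primary ciliary dyskinesia, did not pass: it stood at 205, 248, 197 and 204 in cortex and at 106, 212, 205 and 122 in striatum (difference -0.46, 95% interval -1.01 to 0.09). Dnah9 was at 115 ± 21.1 and 145 ± 46.5 (SD, n = 4; difference 0.31, interval -0.27 to 0.89).

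Of the 9 inner arm heavy chains, which shape the bend of the stroke, 5 were higher and none lower (median 0.77). Dnah6 (ENSMUSG00000052861, chromosome 6, positions 73017606 to 73221651, minus strand) stood at 44.3, 70.4, 24.7 and 74.2 in cortex and at 232, 181, 167 and 89.0 in striatum. All 4 striatum values lay above all 4 of cortex, with a difference of 1.67 (SE 0.37, limma adjusted p = 0.00181). Dnah3 had the largest difference of the family, 2.63 (SE 0.78, limma adjusted p = 0.0113), with 13.2, 25.7, 0 and 28.1 in cortex and 53.5, 83.3, 87.5 and 39.2 in striatum. The size of this difference rested on WT cortex 7, in which no read was counted, and it was 1.52 without that library. Lyrm1 covers 10.5% of its exons on the other strand. Dnah1 was at 224 ± 23.3 in cortex and 388 ± 92.5 in striatum (SD, n = 4), a difference of 0.77 (SE 0.23, limma adjusted p = 0.0138). The copies Dnah7a, Dnah7b and Dnah7c share up to 33.2% of their 75-base stretches with other genes, so reads could be split between them. None of the 3 passed the test, and their differences were -0.18, 0.57 and -0.50.

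Of the 8 radial spoke genes 2 were higher, a share close to the 24.9% of all genes. Both encode proteins of the spoke head and are mutated in human ciliary disease. Rsph4a (ENSMUSG00000039552, chromosome 10, positions 33905111 to 33916021, plus strand) stood at 43.3, 78.0, 28.3 and 48.1 in cortex and at 274, 184, 197 and 108 in striatum. The lowest striatum library lay above the highest cortex library, and the difference was 1.94 (SE 0.30, limma adjusted p = 8.11e-05). Rsph1 stood at 46.1 ± 10.8 and 119 ± 53.1 (SD, n = 4), a difference of 1.27 (SE 0.29, limma adjusted p = 0.00226). Another head gene, Rsph9, did not pass, at 152 ± 18.4 and 183 ± 41.2 (difference 0.26, interval -0.09 to 0.60). The spoke stalk genes Rsph3a and Rsph3b, near-identical copies that share 52.5% and 60.4% of their 75-base stretches with other genes, had differences of -0.27 and -0.34 and did not pass either.

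The central apparatus held calls in both directions: of its 9 members that also reached the level in cortex, 3 were higher and 3 lower (median -0.03). The tenth, Cfap221 (ENSMUSG00000036962, chromosome 1, positions 119923341 to 119997234, minus strand), a projection protein of the central pair, passed the filter through striatum only, so its values are a description. It was counted at 0.942, 1.90, 0.914 and 3.01 in WT cortex, which is 1 to 3 reads per library and 7 in all. In WT striatum it stood at 14.8, 15.2, 19.1 and 20.1. Per counted read of each tissue the level was 10.4 times as high in striatum (95% interval 4.76 to 26.9 from counting error only). Spag17, a central pair protein (ENSMUSG00000027867, chromosome 3, positions 99885406 to 100143322, plus strand), stood at 7.53, 4.75, 2.74 and 10.03 in cortex and at 32.98, 55.9, 49.4 and 10.6 in striatum. The groups came close but did not overlap, with a difference of 2.28 (SE 0.51, limma adjusted p = 0.00196). Of its exons, 9.66% overlap Wdr3 and 6.08% an antisense transcript on the other strand. Spag16, also of the central pair, was at 11.1 ± 7.17 and 74.0 ± 61.7 (SD, n = 4; difference 2.53, SE 0.61, limma adjusted p = 0.00301), and its largest striatum value, 164, came from the choroid-rich library WT striatum 5. Hydin, a very large central pair protein whose loss causes hydrocephalus in mice, was at 20.7, 59.0, 12.8 and 41.1 in cortex and at 84.2, 79.3, 76.3 and 60.4 in striatum, without overlap (difference 1.36, SE 0.38, limma adjusted p = 0.00885). Its difference ran from 0.99 to 1.70 with single libraries left out.

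Of the 10 doublet inner proteins that also reached the level in cortex, 7 were higher and none lower (median 1.02). Cfap77 and Cfap53, the other 2 of the 12, passed the filter through striatum only. Cfap77 (ENSMUSG00000079502, chromosome 2, positions 28926949 to 29055066, minus strand) stood at 3.77, 2.85, 0.914 and 3.01 in cortex, 1 to 4 reads per library and 11 in all, and at 34.1, 18.3, 32.5 and 9.54 in striatum. The ratio per counted read was 8.89 (95% interval 4.73 to 18.5 from counting error only). Cfap52 stood at 12.9 ± 7.18 and 71.6 ± 59.4 (SD, n = 4; difference 2.30, SE 0.59, limma adjusted p = 0.00489). The Cfap52 difference ran from 1.75 to 2.59 with single libraries left out. Cfap161 rose by 2.20 (SE 0.47, limma adjusted p = 0.00133) and Cfap126 by 1.66 (SE 0.37, limma adjusted p = 0.00194). Of the tektins, filament proteins of the doublet, Tekt5 had the smallest difference of those called, from 152 ± 15.6 to 229.9 ± 29.5 (SD, n = 4; difference 0.59, SE 0.11, limma adjusted p = 0.000415). Tekt1 (1.27, SE 0.43, limma adjusted p = 0.0232) and Tekt4 (1.11, SE 0.35, limma adjusted p = 0.0168) were called as well. The call of Tekt1 was lost without WT cortex 7 (limma adjusted p = 0.0626) or WT striatum 5 (limma adjusted p = 0.0798), and that of Tekt4 without WT cortex 7 (limma adjusted p = 0.0570). Tekt2 was not called, at 27.4 ± 5.74 in cortex and 26.2 ± 8.88 in striatum, and 20.8% of its exons overlap a transcript on the other strand. Cfap20 stood at 660.3 ± 27.3 and 750.4 ± 78.5 (SD, n = 4) and did not pass after adjustment (difference 0.18, interval 0.01 to 0.35). The light chain gene Dynlrb2, which serves several dyneins, was also higher in striatum, at 46.0 ± 29.9 against 12.2 ± 3.80 (SD, n = 4; difference 1.69, SE 0.43, limma adjusted p = 0.0043).

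The genes that were lower in striatum were Spag5, Spag6l, Cfap100, Cfap69, Cfap74 and Spag1. Spag5 (ENSMUSG00000002055, chromosome 11, positions 78301529 to 78322457, plus strand) stood at 536, 633, 670.0 and 653 in cortex and at 73.9, 127, 107 and 171 in striatum, a difference of -2.43 (SE 0.21, limma adjusted p = 3.77e-07). Its groups lay far apart, as did those of Spag6l. The table's Spag6l is the identifier ENSMUSG00000037708 on chromosome 2 (positions 18694032 to 18750413, plus strand), which the annotation GENCODE M21 calls Spag6, and the table's Spag6 is ENSMUSG00000022783 on chromosome 16, which GENCODE calls Spag6l. Both encode a central pair protein. The chromosome 2 gene stood at 129, 130.3, 108 and 136 in cortex and at 23.9, 15.2, 12.3 and 6.36 in striatum, a difference of -3.16 (SE 0.30, limma adjusted p = 8.99e-07). The chromosome 16 gene stood at 146 ± 14.1 and 191 ± 68.4 (SD, n = 4) and did not pass (difference 0.32, interval -0.13 to 0.77). These 2 related genes thus had opposite signs, of which only the fall passed the test.

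The remaining lower genes moved less. Cfap100, a protein linked to inner arm dyneins, was at 96.1 ± 18.8 in cortex and 60.1 ± 11.9 in striatum (SD, n = 4; difference -0.67, SE 0.17, limma adjusted p = 0.00502). Cfap69 and Cfap74, of the central apparatus, stood at 533 ± 34.6 and 413 ± 16.4 (difference -0.36, SE 0.11, limma adjusted p = 0.0126) and at 479 ± 26.4 and 369 ± 43.8 (difference -0.38, SE 0.12, limma adjusted p = 0.0161). Spag1, a factor in the assembly of dynein arms, stood at 391 ± 33.4 and 306 ± 28.5 (SD, n = 4; difference -0.35, SE 0.09, limma adjusted p = 0.00397). In none of the 6 did a striatum library reach the lowest cortex library.

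Set beside these calls, the short RFX motif was in at least 1 promoter of 15 of the 22 matched genes that were higher in striatum, of 4 of the 5 that were lower and of 22 of the 26 that were not called.

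In KO mice, 30 of the 62 genes were higher in striatum than in cortex and 3 were lower, against 18.4% and 19.5% of all genes tested. Of the 57 genes that also reached the level in cortex, 27 were higher and 3 lower (median 0.78). Over all 62 the median was 0.79, and 0.68 without the 2 choroid-rich libraries. Of the 62, 49 were above 0, against 50.3% of all genes. Groups did not overlap for 29 members in the higher direction and 4 in the lower, against 20.1% and 21.4% of all genes. In both genotypes 23 genes were called higher and 3, Spag5, Spag6l and Cfap100, were called lower. Cfap221, Cfap53 and Cfap77, which passed the filter through striatum alone, are among the 29 and among these 23. Another 5 were higher in WT only (Dnah11, Dnah17, Dnah3, Spag17 and Spag8), 7 higher in KO only (Cfap44, Cfap57, Cfap61, Cfap70, Dnah2, Dnah7b and Tekt2), 3 lower in WT only (Cfap69, Cfap74 and Spag1), and 21 were called in neither. The count in KO leaned on single libraries: it was 18 without KO striatum 3 and 19 without KO striatum 4. The call of Cfap100 was lost without KO striatum 2 (limma adjusted p = 0.0524), without KO striatum 4 (limma adjusted p = 0.0768) and without both choroid-rich libraries (limma adjusted p = 0.0603).

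In KO libraries Foxj1 stood at 154, 147, 113 and 138 in cortex 1 to 4 and at 267, 333 and 544 in striatum 2 to 4, without overlap, a difference of 1.40 (SE 0.33, limma adjusted p = 0.00362). Dnaic2 was at 40.3 ± 9.34 (SD, n = 4) and 142 ± 60.9 (SD, n = 3; difference 1.71, SE 0.30, limma adjusted p = 0.000515). Tmem212 was at 24.7, 25.3, 19.7 and 21.5 in cortex and at 41.6, 93.9 and 126 in striatum (difference 1.76, SE 0.52, limma adjusted p = 0.0151), a call that was lost without KO striatum 4 (limma adjusted p = 0.0678). Cfap221 was at 8.80, 4.68, 8.05 and 7.46 in cortex and at 21.9, 28.2 and 48.7 in striatum, a direction that the filter favoured. Spag17, which was called in WT only, stood in KO at 19.4, 24.3, 19.7 and 15.9 in cortex and at 14.2, 55.3 and 50.8 in striatum, so that KO striatum 2 lay below all 4 cortex libraries (difference 0.78, SE 0.56, limma adjusted p = 0.289). Spag5 fell from 611 ± 135 to 123 ± 7.17 (difference -2.27, SE 0.22, limma adjusted p = 3.11e-06) and Spag6l from 103 ± 19.8 to 21.3 ± 6.33 (difference -2.24, SE 0.32, limma adjusted p = 9.22e-05). In no member was the tissue difference itself shown to differ between genotypes, since none passed the test of that difference (below). The plot of WT against KO tissue differences shows the genes together.

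**Figure D3:**
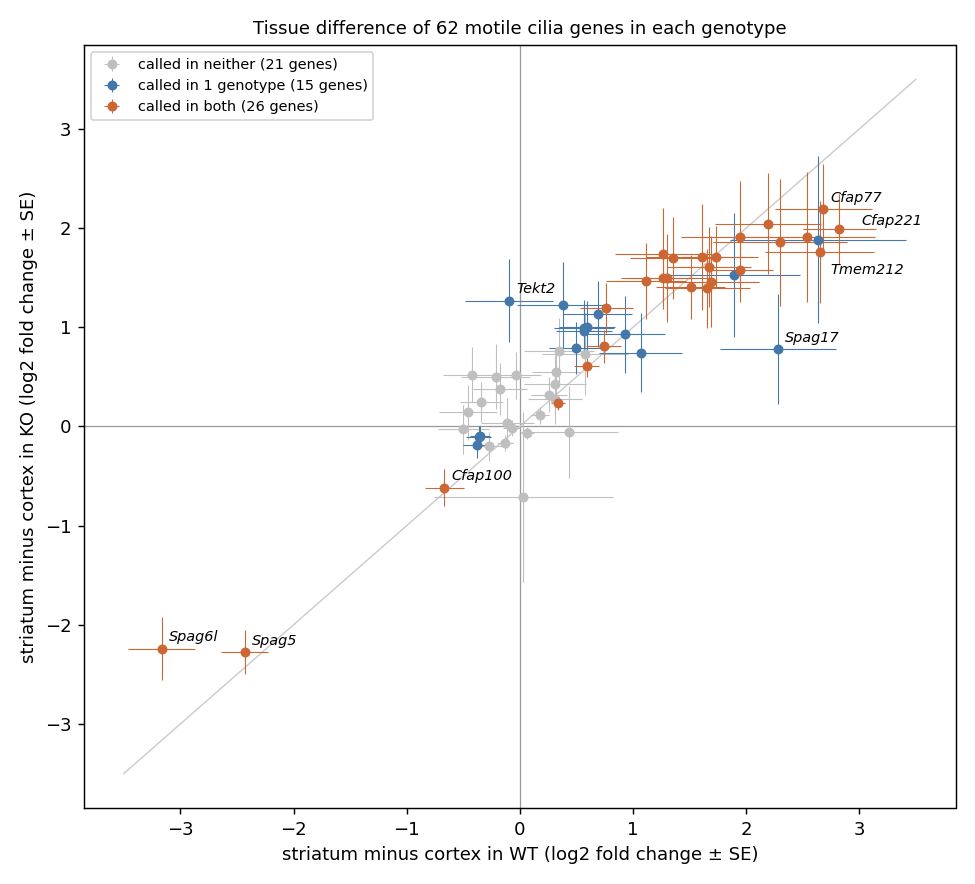
Striatum minus cortex difference (log2) of each of the 62 genes in WT (x axis) and in KO (y axis), with SE bars. Of the genes, 26 were called in both genotypes, 15 in 1 genotype and 21 in neither; Spag6l and Spag5 lie at the lower left, and Cfap221, Cfap77 and Tmem212 at the upper right.

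In cortex, no member was called between KO and WT: 0 of 62 were higher and 0 lower in limma, against 0% and 0.00587% of all genes tested. edgeR and DESeq2 on the recovered reads also called 0. At an unadjusted p below 0.05 there were 7 members, all higher in KO, or 11.3% of the members against 2.51% of all genes in either direction. The members' median was 0.18 on the log2 scale, with 51 of 62 above 0, against 50.5% of all genes. All 4 KO values lay above all 4 WT values for 9 members, or 14.5%, against 1.73% of all genes, and in no member did all 4 KO values lie below, against 2.28%. The 9 were Cfap126, Cfap221, Cfap77, Dnah12, Dnah6, Rsph3a, Rsph4a, Spag17 and Tmem212. By role, all 9 inner arm heavy chains were above 0 (median 0.19), the spokes had a median of 0.24, the central apparatus 0.22, and the name-only genes 0.01.

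The 5 members with the smallest p in this comparison were Cfap221, Spag17, Rsph4a, Tmem212 and Dnah9. Cfap221, at 1 to 3 reads in each WT cortex library, stood at 8.80, 4.68, 8.05 and 7.46 normalized counts in KO cortex (difference 1.66, SE 0.33, interval 0.96 to 2.35), and the ratio per counted read was 4.37 (95% interval 1.90 to 11.7 from counting error only). Spag17 stood at 19.4, 24.3, 19.7 and 15.9 in KO against 7.53, 4.75, 2.74 and 10.03 in WT (difference 1.62, SE 0.51, interval 0.52 to 2.72). Every KO library of these genes lay above every WT library. Rsph4a was even in KO, at 83.6, 94.5, 92.1 and 84.9, and scattered in WT, at 43.3, 78.0, 28.3 and 48.1 (difference 0.92, SE 0.30, interval 0.29 to 1.55). Tmem212 stood at 24.7, 25.3, 19.7 and 21.5 in KO and at 17.0, 9.51, 2.74 and 8.02 in WT (difference 1.40, SE 0.48, interval 0.38 to 2.43). Dnah9 overlapped, at 162, 272, 118 and 247 in KO and 109, 139, 88.7 and 121 in WT (difference 0.74, interval 0.16 to 1.32). After adjustment the limma p of each of these 5 was 1. Foxj1 did not differ beyond the spread, at 138 ± 18.1 in KO and 119 ± 41.3 in WT (SD, n = 4; difference 0.28, interval -0.36 to 0.93).

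WT cortex 7 was the lowest of the 8 cortex libraries for 29 members, while it was the lowest for 18.6% of all genes. Without it the members' median difference between KO and WT cortex was 0.12. The choroid plexus genes moved the same way as the members between the cortex groups: all 18 were above 0 with a median of 1.32, none was called, and their sums are given above. Their part in the members' values was not tested.

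In striatum, again no member was called between KO and WT in limma, against 0.0705% of all genes called higher, 0.00587% lower and 0.0763% in either direction. The smallest adjusted p was 0.173. edgeR called 0 members and DESeq2 called 2, Cfap46 (DESeq2 adjusted p = 0.0441) and Cfap69 (DESeq2 adjusted p = 0.0294), both higher in KO, while it called 1.16% of all genes higher. With no adjustment, 18 members had a limma p below 0.05 in either direction, or 29.0% of the members against 15.3% of all genes. Of these 18 members, 17 were higher in KO. The median was 0.42, with 53 of 62 above 0, against 51.7% of all genes. Without the 2 choroid-rich libraries it was 0.37, and 1 member, Dnah1, was then called (limma adjusted p = 0.0355), against 1.37% of all genes called higher in that fit, so 1 of 62 is near the background. Without KO striatum 2 the median was 0.72. Groups did not overlap for 7 members higher in KO (Cfap221, Cfap44, Cfap54, Dnah7a, Dnah7c, Hydin and Rsph3b), or 11.3%, against 3.96% of all genes, and for 1 lower, Cfap36, against 4.12%.

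The smallest p values belonged to Cfap69, Cfap46, Cfap54, Cfap44 and Dnah9. Of these, Cfap46 and Cfap54 sit with Cfap74 and Cfap221 on the same projection of the central pair. Cfap46 stood at 146, 316 and 179.9 in KO striatum 2 to 4 and at 64.8, 162, 98.7 and 110.2 in WT striatum 5 to 8 (difference 0.96, SE 0.28, limma adjusted p = 0.183). Cfap54 stood at 288, 422 and 350.4 in KO and at 242, 244, 231 and 116 in WT (difference 0.81, SE 0.24, limma adjusted p = 0.183). Cfap46 overlapped by 1 library and Cfap54 did not overlap. Cfap69 was at 425, 658 and 616 in KO and at 432, 419.6, 394 and 408 in WT (difference 0.43, SE 0.12, limma adjusted p = 0.173), so KO striatum 2 lay within the WT range and the other 2 above it. Cfap44, at 169.7, 320.2 and 285 against 163, 140.2, 157 and 68.9, had a difference of 0.99 (SE 0.33, limma adjusted p = 0.217). Dnah9 was at 262 ± 75.8 (SD, n = 3) and 145 ± 46.5 (SD, n = 4; difference 0.85, SE 0.29, limma adjusted p = 0.219).

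By role, the medians were 0.69 for outer arms, 0.65 for inner arm heavy chains, 0.53 for the central apparatus, 0.33 for spokes, 0.34 for doublet inner proteins and -0.01 for the name-only genes. All 9 inner arm heavy chains and all 10 genes of the central apparatus were above 0, but genes measured in the same libraries are not independent. For several genes with a large tissue difference the interval between genotypes in striatum spanned 0. Foxj1 was at 381 ± 145 in KO and 342 ± 143 in WT (difference 0.18, interval -0.52 to 0.87), Dnaic2 at 142 ± 60.9 and 142 ± 29.5 (difference -0.08, interval -0.73 to 0.57), and Tmem212 at 41.6, 93.9 and 126 against 77.3, 66.0, 79.6 and 22.3 (difference 0.52, interval -0.59 to 1.62). Hydin stood at 87.6, 214 and 203 in KO and at 84.2, 79.3, 76.3 and 60.4 in WT (difference 1.06, interval 0.17 to 1.95), with the lowest KO library just above the highest WT library.

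The KO libraries were uneven. KO striatum 2 lay above all 4 WT libraries for 13 members, KO striatum 3 for 35 and KO striatum 4 for 36, while of all genes 23.05%, 27.9% and 27.7% did so. The highest striatum library was KO striatum 3 for 24 members, whose exons had a median length of 10278.5 bases, KO striatum 4 for 17 members (median 3188 bases) and WT striatum 5 for 11 (median 2600 bases). The lowest was WT striatum 8 for 30 members, against 9.90% of all genes. Over all 16929 genes with a length, the KO minus WT difference rose with the length of the longest transcript. The Spearman correlation across genes was 0.27 in cortex and 0.15 in striatum. Genes are not independent replicates. With trends with length and GC content removed in each library, the members' median difference was 0.16 in cortex and 0.41 in striatum. Marker genes of cortical neurons moved along in striatum: all 8 were above 0 in KO minus WT with a median of 1.46, and 1, Neurod2, was called (limma adjusted p = 0.0300). Marker genes of striatal neurons had 0 of 10 above 0 and a median of -0.83. Their part was not tested either.

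**Figure D4:**
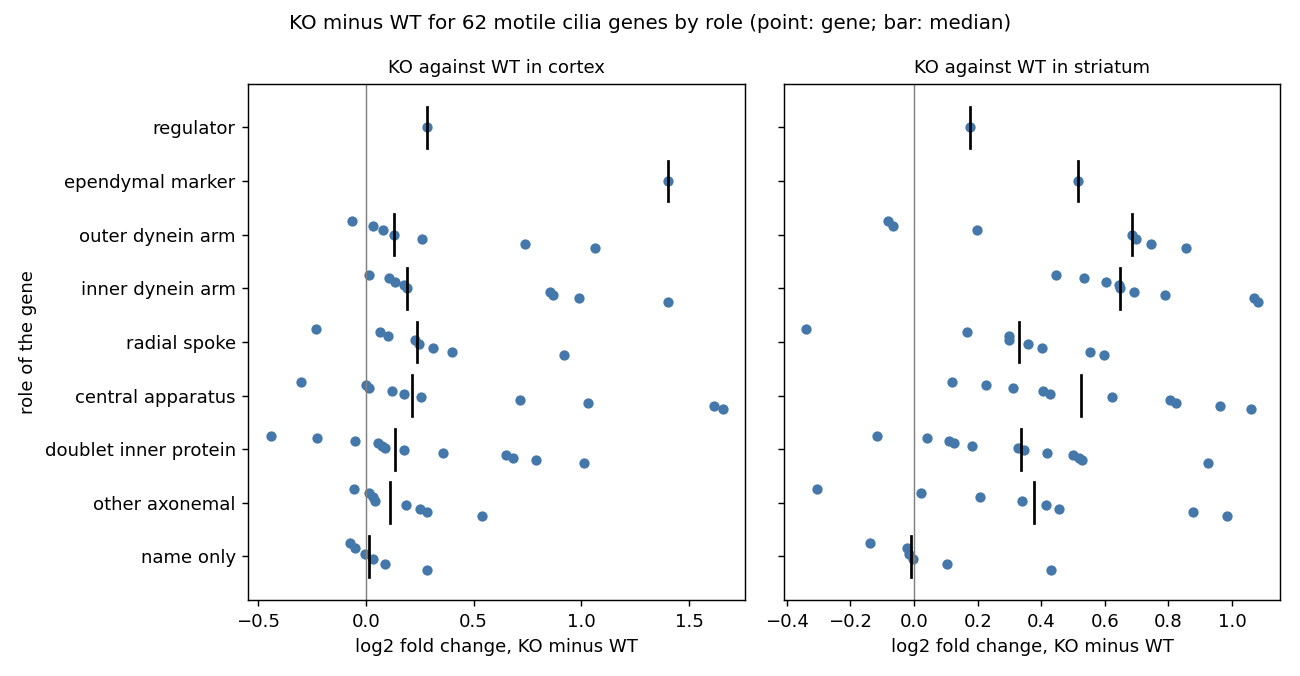
KO minus WT difference (log2) of each gene, grouped by role, in cortex (left) and striatum (right), with a bar at the median of each role. No gene was called by limma in either tissue. In striatum all inner arm heavy chains and all central apparatus genes lie above 0, against 51.7% of all genes tested.

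The KO effect was also compared between the tissues. No member passed (smallest limma adjusted p = 0.961), against 0.00587% of all genes called higher and 0% lower; edgeR and DESeq2 called 0. At an unadjusted p below 0.05 there were 2 members, Cfap46 and Tekt2, or 3.23% against 4.9% of all genes. The KO effect on Cfap46 was 0.02 in cortex and 0.96 in striatum, a difference of 0.95 (SE 0.38, interval 0.13 to 1.76). For Tekt2 it was -0.44 and 0.92, a difference of 1.36 (SE 0.57, interval 0.14 to 2.59). The next smallest were Rsph3b (0.59), Spag1 and Spag6l (0.92). The members' median difference was 0.08, with 38 of 62 above 0, against 49.8% of all genes. The 2 KO comparisons do not share libraries, but each shares its libraries with the tissue comparisons.

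A summary per library shows the spread within groups. The mean log2 deviation of the 62 genes from their mean over all libraries was -0.0726, -0.12, -0.158 and -0.275 in KO cortex 1 to 4 and -0.478, -0.251, -0.912 and -0.324 in WT cortex 5 to 8. It was 0.122, 0.86 and 0.836 in KO striatum 2 to 4 and 0.448, 0.265, 0.235 and -0.176 in WT striatum 5 to 8. WT cortex 7 was the lowest library, and WT striatum 8 lay within the range of cortex. The 2 highest, KO striatum 3 and 4, differed in choroid plexus counts, with 3344 and 96778. WT striatum 5, which had the highest choroid plexus sum, came next. In cortex, the 4 KO libraries had 28, 26, 27 and 14 members above all 4 WT libraries, against 18.3%, 22.2%, 18.8% and 17.6% of all genes.

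**Figure D5:**
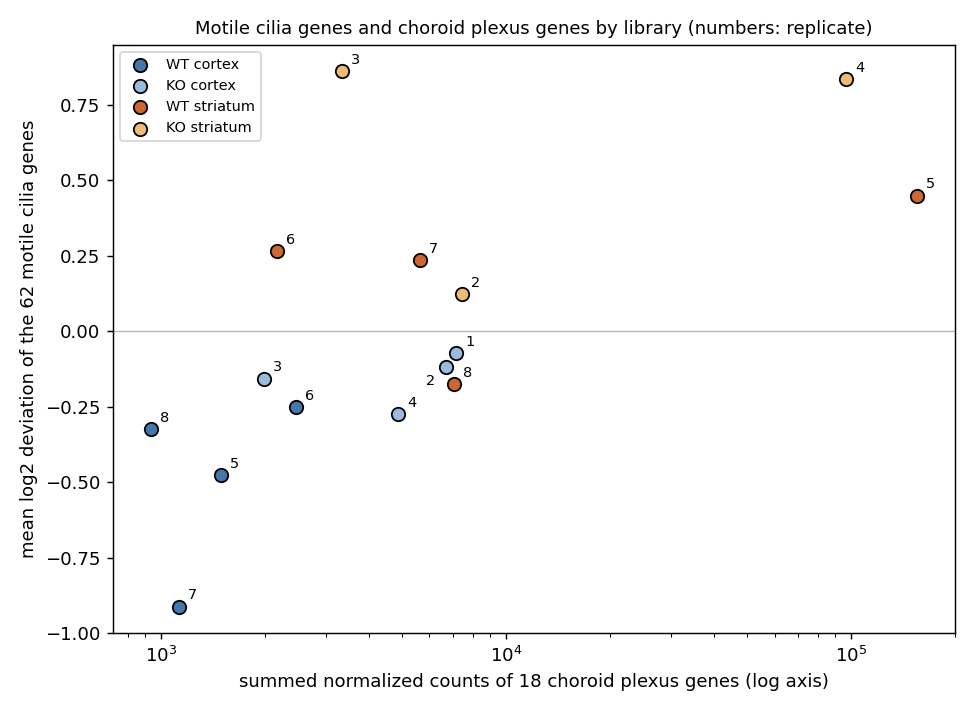
Mean log2 deviation of the 62 genes in each library (y axis) against the summed normalized counts of 18 choroid plexus marker genes (x axis, log scale), by tissue and genotype. Striatum libraries lie above cortex libraries with 1 exception, WT striatum 8, and KO striatum 3 is as high as KO striatum 4 at far fewer choroid plexus counts.

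Other genes of the motile cilium were taken from lists by function, and their counts are read against the 24.9% of all genes that were called higher and the 25.7% called lower in WT striatum. In WT, of 7 tested genes for the transcription and centriole programme of multiciliated cells, 5 were higher in striatum and none lower (median 1.34). Among them were Ccno (120 ± 63.8 against 22.1 ± 8.12; difference 2.24, SE 0.46, limma adjusted p = 0.000972), which acts in centriole amplification, and Trp73 (72.0 ± 27.6 against 12.4 ± 3.22; difference 2.41, SE 0.29, limma adjusted p = 9.84e-06), a transcription factor upstream of Foxj1. Rfx3, a widely expressed RFX factor, did not pass (difference 0.26, SE 0.16). Of 30 other axonemal and ependymal cilia genes, 18 were higher and none lower (median 1.15), with Spef2 at 110 ± 32.3 against 24.1 ± 11.52 and Ak7 at 145 ± 58.8 against 26.3 ± 15.4 (SD, n = 4 in each group). Of 11 genes for the ruler and the nexin-dynein regulatory complex, which set the spacing of the arms and link the doublets, 4 were higher and 5 lower (median -0.00412). Ccdc40 was higher (1.53, SE 0.43, limma adjusted p = 0.00856) while its partner Ccdc39 was lower (-0.59, SE 0.12, limma adjusted p = 0.000824). Docking and light chain genes had 2 higher and 2 lower of 8, and assembly factors 2 higher and none lower of 6.

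Genes of intraflagellar transport, which builds cilia of every kind, and of primary cilia, which most brain cells carry, had 6 higher and 10 lower of 32 in WT, with a median of -0.06. Sstr3, a receptor of neuronal primary cilia, was the gene with the largest size of difference in that list, at 706 ± 26.01 in cortex and 122 ± 48.0 in striatum (SD, n = 4; difference -2.63, SE 0.24, limma adjusted p = 6.34e-07). In KO the counts are read against the 18.4% of all genes called higher and the 19.5% called lower. The counts higher and lower were 2 and 0 of 7 for the transcription list and 15 and 0 of 30 for the other axonemal genes. They were 3 and 2 of 11 for the ruler list and 2 and 8 of 32 for the primary cilia list. Between KO and WT no gene of these lists was called in either tissue. The medians in cortex and striatum were 0.25 and 0.29 for the other axonemal genes, 0.30 and 0.09 for the transcription list, and -0.00305 and 0.0168 for the primary cilia list.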

How the data were processed

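The members, lists and tests were chosen with earlier results of these data known. Total RNA was extracted with the RNeasy mini kit and made into libraries with NEBNext Ultra RNA from 800 ng, per the labels' protocols. The build GRCm38 and the tools TopHat2 2.1.1 and HTSeq 0.6.0 are listed in the submitters' processing notes, along with DESeq2 1.12.4, cutadapt 1.1 and FastQC 0.11.5. The role of each tool, the strand setting of the counting and the annotation release are not given in the sources used here. Genes that overlap on opposite strands could therefore not be separated.

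Values in the deposited table are normalized signals for 26595 genes in 15 libraries. In each library all values (100%, with a tolerance of 0.001) were whole multiples of 1 step, so the authors had scaled each library's read counts by a single factor. Whole reads could thus be recovered for the alternatives.

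The main test was limma 3.58.1 under R 4.3.3, with a variance trend, on log2(normalized count + 1). It fitted 4 group means over all 15 libraries (11 residual degrees of freedom) and Benjamini-Hochberg adjustment over 17030 genes. A gene was called at an adjusted p below 0.05. On this scale fold changes of low genes are understated. The 5 comparisons were striatum against cortex in each genotype, KO against WT in each tissue, and the difference of the KO effects. On simulated counts of 17030 genes the test recovered 83.6% of genes changed 2-fold between KO and WT in cortex, 86.6% in striatum, and 80.6% between tissues in WT. The changed genes were drawn at random from all genes above a minimum mean, with noise independent between genes. Members varied more between libraries than genes in general, so these shares do not give the recovery for members. Between KO and WT the simulated fits called 170 genes in cortex and 167 in striatum, against 1 and 13 in the data. The adjusted cutoff was thus looser in the simulation, and its shares do not give the recovery of the KO against WT tests.

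Named were Foxj1, Spag17, Tmem212, Hydin, Dynlrb2, in each family the 3 members with the highest mean and the 3 with the largest WT tissue difference, the 5 with the smallest p in each genotype comparison, and members lower in striatum. Other members named were chosen after their values were seen. Exon positions and lengths came from GENCODE M21. Tried as alternatives were pseudocounts of 0.5 and 5, no filter or a minimum of 10 on the mean, scaling by library total or TMM, edgeR 4.0.16 and DESeq2 1.42.0 on recovered reads, only the groups compared, trends with length and GC content removed, libraries left out, and the replicate number as a block. Figures were drawn with matplotlib 3.10.9 under Python 3.11.15.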

Additional observations from a re-analysis of the deposited data

Results flagged for a closer look

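In 6 of 123 sets of 4 libraries (the named genes in KO cortex, WT cortex and WT striatum), the library at 1 end stood apart from the other 3 by more than Dixon's criterion allows. Chance gives about 1 in 20 such sets, so 6 is close to what it gives. The lone low values were Cfap100 in KO cortex 3 at 104 normalized counts (119 to 121 in the others), Cfap54 in WT striatum 8 at 116 (231 to 244) and Tekt2 in WT cortex 5 at 18.8 (29.1 to 31.1). The lone high values were Dnah11 in KO cortex 2 at 55.2 (35.5 to 38.5), Dnah5 in WT cortex 6 at 248 (197 to 205) and Spag7 in KO cortex 2 at 834 (692 to 705). The WT striatum 8 value belongs to the library that was lowest in striatum for 30 of the 62 genes, and it enters the KO against WT difference of Cfap54 given above.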

How the results depend on the processing

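Over 27 alternatives, members called higher in WT striatum numbered 23 to 34 and lower 6 to 7, and in KO 18 to 34 and 2 to 4. Of the 28 higher in WT, 23 were called in every alternative, with Dnah10, Dnah17, Spag8, Tekt1 and Tekt4 the exceptions, as were all 6 lower. In KO 14 of 30 and 2 of 3 were. Between KO and WT no member was called lower in either tissue or higher in cortex. In striatum DESeq2 called 2 higher and the fit without the 2 choroid-rich libraries 1, and leaving out single libraries gave 0 to 2 (Cfap69 without KO striatum 2, limma adjusted p = 0.0135; Dnah1, 0.0264, and Rsph3a, 0.04998, without KO striatum 4). Of all genes 1.16% were called higher by DESeq2, 1.37% without the choroid-rich libraries, 0.0411% without KO striatum 2 and 1.80% without KO striatum 4. For members higher in KO striatum than in KO cortex, leaving out single libraries gave 18 to 32. Without KO striatum 2 the median of the members was 1.05 between tissues in KO. The cause was not tested. Signs reversed for uncalled genes near 0. In KO these were Cfap36 with library total scaling (0.00653), Cfap69 over left-out libraries (-0.23 without KO striatum 3 to 0.0840 without KO striatum 2), Dnah5 (-0.0928 without KO striatum 3 to 0.48 without KO striatum 2) and Spag7 (-0.0681 without KO striatum 2 to 0.0448 without KO cortex 2, with 0.0220 without KO striatum 3 and 0.0548 under library total scaling). In WT they were Cfap36 with length and GC trends removed (-0.0297) and Tekt2 (-0.26 without WT cortex 5, 0.00397 without WT striatum 7 and 0.0809 without WT striatum 5 or both choroid-rich libraries).

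Replicate numbers are shared between tissues. Same-numbered libraries correlated at -0.00046 to 0.243 over 7 pairs, 5 of them over 0.1, and 6 of 7 striatum libraries correlated best with their own number, a hint from the data. The labels do not state a pairing. With the replicate number as a block, 29 members were higher and 6 lower in WT striatum, 24 and 2 in KO striatum, and 0 differed in their KO effect. In KO the block ended the calls of Cfap100 (limma adjusted p = 0.0719), Cfap52 (0.0695), Cfap53, Cfap57, Cfap61, Dnah12 and Spag16 (0.0796), and in WT it added Dnah7b. Depth limited Cfap221 and Cfap77, with 7 and 11 reads in all of WT cortex.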
